A study of Mus musculus with 65 samples.

Results

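Distal open sites that were first listed 1 h or 2 h after replication were studied in mouse embryonic stem cells. They are peaks of the steady-state list whose nearest Ensembl transcription start site (TSS) midpoint lies more than 1000 bp away, and which overlap neither the central 1 kb of an annotated embryonic stem cell enhancer nor a peak of the serine 5 phosphorylated form (S5P) of RNA polymerase II. Each overlaps the 1 h or the 2 h peak list and neither the nascent nor the 30 min list. Of 166636 steady-state peaks, 39337 met this rule, which is 23.6%. Because the time-series lists chose these members, what those lists show of them is a description and was not tested. The inhibitor experiment and the spike-in experiment played no part in the choice.

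Every sample came from the line E14TG2a (strain 129/Ola), grown on gelatin in medium with serum and LIF. Repli-ATAC-seq marks new DNA with EdU, a thymidine analogue, lets the transposase Tn5 cut open chromatin, and captures the labelled fragments, so that accessibility is read on DNA of known age. In the inhibitor experiment cells were given triptolide, DRB or DMSO for 2 h before 20 uM EdU was added for 10 min, and were taken after a 2 h chase in 10 uM thymidine or at once (nascent). The sources used here give no inhibitor doses. The groups are 2 h triptolide, 2 h DRB, 2 h DMSO, nascent triptolide, nascent DRB and nascent DMSO, each with 3 libraries of EdU-labelled DNA and 3 of the unbound DNA that the capture left behind. Whether the 3 libraries of a group came from separate cultures is not stated in the labels, and p-values therefore reflect only how these samples varied. Signal is given in RPM, the reads in a 1 kb window scaled to a common library total.

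At a replication fork nucleosomes are displaced and rebuilt, and factors bound to DNA are removed from both daughter strands. A distal site becomes accessible again when a factor or remodeller reopens it. Triptolide inhibits the XPB subunit of TFIIH and so blocks initiation by RNA polymerase II, and DRB inhibits the CDK9 kinase that the polymerase needs to elongate. A site without a TSS, an annotated enhancer or S5P may be an enhancer of low activity, a binding site of a factor such as CTCF, or an open site of no known role.

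The members were small and lay far from TSSs. Their median width was 400 bp, against 500 bp for distal unannotated peaks first listed at 30 min, 600 bp for those open in nascent chromatin and 350 bp for those seen only at steady state. The median distance to a TSS was 26643 bp in members, against 17391 bp, 12345 bp and 23927 bp in the same 3 classes. More than 50 kb from any TSS lay 12936 members (32.9%), and 4934 (12.5%) lay within 5 kb. A RefSeq gene held 56.0% of members, against 62.3%, 71.9% and 63.1% in those classes. The 1 h and 2 h lists both held 13921 members, the 1 h list alone held 5565, and the 2 h list alone held 19851. The gap to the nearest nascent or 30 min peak had a median of 9426 bp, and it was under 1000 bp for 6183 members (15.7%). At the 1000 bp limit of the rule, the 3 closest members lay 1002, 1003 and 1004 bp from a TSS (near Creb3l3, Senp3 and Raet1e), and the 3 peaks left out by the smallest margin, near Sirt4, Litaf and Bcl6, lay no more than 1000 bp away. In 2 h DMSO the member near Senp3 had 4.29, 4.32 and 3.6 RPM, and the peak near Sirt4 had 3.68, 1.08 and 2.77 RPM. The member near Creb3l3 had 2.45, 2.16 and 0.830 RPM, and the peak near Litaf 0.613, 0.360 and 0.000 RPM.

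Sequence could be read only where a member covered the promoter window of a RefSeq gene, defined as the 250 bases before and 50 after an annotated start. These are RefSeq starts that lay over 1000 bp from every Ensembl TSS midpoint of the study. Of 32851 such windows, 506 (of 460 genes) had at least 150 bp inside a member, and 184 of them belonged to coding genes and 322 to long noncoding RNAs. The windows below are given as examples of a gain over the chase at a gene's start. They are 4 coding genes among the 8 with the greatest called gain. With them are 2 long noncoding RNAs among the 3 holding the CTCF letters with the greatest called gain. The inhibitor experiment has only nascent and 2 h samples, so it does not date a gain within the chase. The windows were picked after their values were seen. Sequences are from RefSeq on build GRCm38.p6, read 5′ to 3′ on the gene's strand. Capitals mark the letters of a searched motif on either strand.

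Fkbp14, chr6:54593125-54593424, minus strand, capitals NFY: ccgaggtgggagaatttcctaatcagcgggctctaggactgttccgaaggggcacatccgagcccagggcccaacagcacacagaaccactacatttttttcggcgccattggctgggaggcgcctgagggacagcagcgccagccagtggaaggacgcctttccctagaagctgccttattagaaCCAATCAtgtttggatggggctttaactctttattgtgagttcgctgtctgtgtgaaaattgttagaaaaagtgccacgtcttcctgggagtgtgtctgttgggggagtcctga
Kcnj16, chr11:111023610-111023909, plus strand, capitals NFY and SP: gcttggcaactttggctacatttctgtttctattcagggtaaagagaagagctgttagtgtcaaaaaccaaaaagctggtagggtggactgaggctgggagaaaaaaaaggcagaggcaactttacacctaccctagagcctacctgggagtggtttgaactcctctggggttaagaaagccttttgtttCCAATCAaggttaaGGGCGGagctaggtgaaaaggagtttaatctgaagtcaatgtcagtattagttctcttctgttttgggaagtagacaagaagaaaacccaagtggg
Rgl1, chr1:152625168-152625467, minus strand, none of the searched letters: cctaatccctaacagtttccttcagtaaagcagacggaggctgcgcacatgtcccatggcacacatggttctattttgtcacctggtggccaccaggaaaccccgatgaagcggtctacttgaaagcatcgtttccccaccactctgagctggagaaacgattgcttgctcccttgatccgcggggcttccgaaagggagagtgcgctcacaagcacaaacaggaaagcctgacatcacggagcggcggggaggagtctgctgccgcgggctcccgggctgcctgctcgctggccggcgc
Frmpd4, chrX:168122892-168123191, minus strand, capitals SP: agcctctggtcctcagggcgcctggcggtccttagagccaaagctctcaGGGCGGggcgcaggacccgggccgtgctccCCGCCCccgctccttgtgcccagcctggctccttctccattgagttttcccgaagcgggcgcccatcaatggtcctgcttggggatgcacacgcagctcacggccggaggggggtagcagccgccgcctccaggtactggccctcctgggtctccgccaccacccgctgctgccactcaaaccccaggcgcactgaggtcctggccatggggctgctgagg
1700026F02Rik, chr8:71026706-71027005, minus strand, capitals CTCF: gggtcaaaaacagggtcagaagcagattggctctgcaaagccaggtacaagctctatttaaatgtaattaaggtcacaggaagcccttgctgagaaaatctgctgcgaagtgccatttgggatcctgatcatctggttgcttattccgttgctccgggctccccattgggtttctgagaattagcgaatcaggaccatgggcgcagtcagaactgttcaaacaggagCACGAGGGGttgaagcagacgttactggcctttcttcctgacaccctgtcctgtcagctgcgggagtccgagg
Mir100hg, chr9:41474643-41474942, plus strand, capitals CTCF and GATA: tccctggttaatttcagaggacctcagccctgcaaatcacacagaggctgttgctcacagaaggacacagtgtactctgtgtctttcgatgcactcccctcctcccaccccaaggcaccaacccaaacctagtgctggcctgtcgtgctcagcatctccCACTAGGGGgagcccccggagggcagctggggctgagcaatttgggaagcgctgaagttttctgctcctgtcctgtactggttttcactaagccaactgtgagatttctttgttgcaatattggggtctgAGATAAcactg

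Fkbp14 encodes a peptidyl-prolyl isomerase of the endoplasmic reticulum. Its window had 6.74, 4.32 and 5.81 RPM in 2 h DMSO EdU libraries, against 0.000, 1.01 and 1.32 RPM in nascent DMSO EdU libraries. All 3 libraries taken after the chase lay above all 3 nascent ones. In limma with Benjamini-Hochberg adjustment over all sites, the log2(RPM + 1) difference was 1.97 ± 0.37 (SE, n = 3 each, adjusted p = 3.5e-06). Kcnj16, a potassium channel gene, had 3.07, 3.24 and 2.21 RPM at 2 h, against 0.000, 0.505 and 0.000 RPM in nascent DNA. Rgl1, whose product is a guanine nucleotide exchange factor for Ral GTPases, had 6.74, 5.04 and 6.08 RPM at 2 h, against 1.15, 0.505 and 2.12 RPM in nascent DNA. Frmpd4, a gene of postsynaptic scaffolding on the X chromosome, had 3.98, 5.04 and 4.70 RPM at 2 h, against 1.15, 0.505 and 1.06 RPM in nascent DNA. In none of these 4 did the 2 times overlap. The window of the long noncoding RNA 1700026F02Rik, with the CTCF letters, had 4.90, 2.16 and 3.04 RPM at 2 h, against 1.15, 0.505 and 0.794 RPM in nascent DNA (log2 difference 1.23, limma adjusted p = 0.0045). That of Mir100hg had 3.07, 2.88 and 1.94 RPM at 2 h, against 0.577, 1.01 and 1.06 RPM (log2 difference 0.94, limma adjusted p = 0.037).

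Under triptolide some of these starts had little signal after the chase. The same 2 h DMSO libraries chose these windows for their gain and serve as the control here, so the differences are descriptions. In 2 h triptolide EdU libraries Rgl1 had 1.73, 0.621 and 0.798 RPM, against the 2 h DMSO values given above (log2 difference -1.79, limma adjusted p = 2.1e-05). Fkbp14 had 1.73, 1.55 and 0.532 RPM under triptolide (log2 difference -1.57, limma adjusted p = 0.00047). Kcnj16 had 0.288, 0.931 and 0.000 RPM under triptolide (log2 difference -1.49, limma adjusted p = 0.00047). Frmpd4 had 2.02, 2.17 and 5.85 RPM under triptolide, and its groups overlapped (log2 difference -0.46, limma adjusted p = 0.33). The start of 1700026F02Rik had 0.864, 1.24 and 0.000 RPM under triptolide (log2 difference -1.39, limma adjusted p = 0.0019). That of Mir100hg had 1.44, 1.86 and 1.6 RPM and was not called (log2 difference -0.45, limma adjusted p = 0.38).

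The letters CACNAGNGG, a core of the motif of the insulator protein CTCF, stood in 40 of the 506 windows (7.91%) on either strand. They stood in 3.85% of all 32851 promoter windows of the same length, in 5.62% of those covered by a distal peak open in nascent chromatin, in 4.17% at peaks first listed at 30 min, and in 3.73% at peaks seen only at steady state. The SP letters GGGCGG, which transcription factors of GC-rich promoters read, stood in 29.8% of members' windows and 35.7% of all windows. The SOX letters ACAATGG stood in 5.34% and 3.66%, the AP-1 letters TGANTCA in 9.88% and 7.81%, and the TEAD letters CATTCC in 17.8% and 14.7%. The NRF1 letters GCGCATGCG stood in 0.791% and 1.75%, the E-box CACGTG in 4.74% and 7.15%, and the ESRRB letters TCAAGGTCA in 0 of 506 windows and 0.423% of all. Shares differed less from all windows for the GATA letters AGATAA (11.3% and 11.2%), the NFY letters CCAATCA (8.5% and 7.82%), the OCT4 octamer ATTTGCAT (1.78% and 1.74%), the KLF letters GGGTGTGG (3.75% and 3.56%) and the CRE TGACGTCA (1.58% and 1.79%). At peaks first listed at 30 min, open in nascent chromatin and seen only at steady state, the SOX letters stood in 3.48%, 2.32% and 5.87%. In the same order the AP-1 letters stood in 8.52%, 6.84% and 10.9%, and the TEAD letters in 17.9%, 15.5% and 16.8%. The GATA letters stood in 7.48%, 7.83% and 9.87% there. The median ratio of observed to expected CpG was 0.350 in members' windows, 0.384 in all windows and 0.769 in those covered by a TSS peak, so that members' starts had few CpG dinucleotides. These shares describe letters in a window and were not tested.

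Newly replicated DNA held little signal at the members and gained it over the chase. The mean over members was 2.17, 2.25 and 1.96 RPM in 2 h DMSO EdU libraries, against 0.960, 0.996 and 0.981 RPM in nascent DMSO EdU libraries. The means were 2.13 ± 0.15 and 0.979 ± 0.018 RPM (SD, n = 3 each), a 2.17-fold gain. Groups did not overlap, and the two-sided exact permutation p was 0.1, the smallest that 3 against 3 libraries allow. In the unbound fraction, which is mostly older DNA, the mean was 2.15 RPM after the chase and 2.2 RPM before it (0.978-fold, exact permutation p = 0.6). The members in EdU-labelled DNA thus stood at 0.987 times their unbound level after 2 h and at 0.444 times right after the pulse (exact permutation p = 0.9 and 0.1). The signal formed a peak at the members' centres, with 2.13 RPM at the centre and 0.856 RPM at 1 kb to its left in 2 h DMSO, against 0.979 and 0.662 RPM in nascent DMSO.

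**Figure D1:**
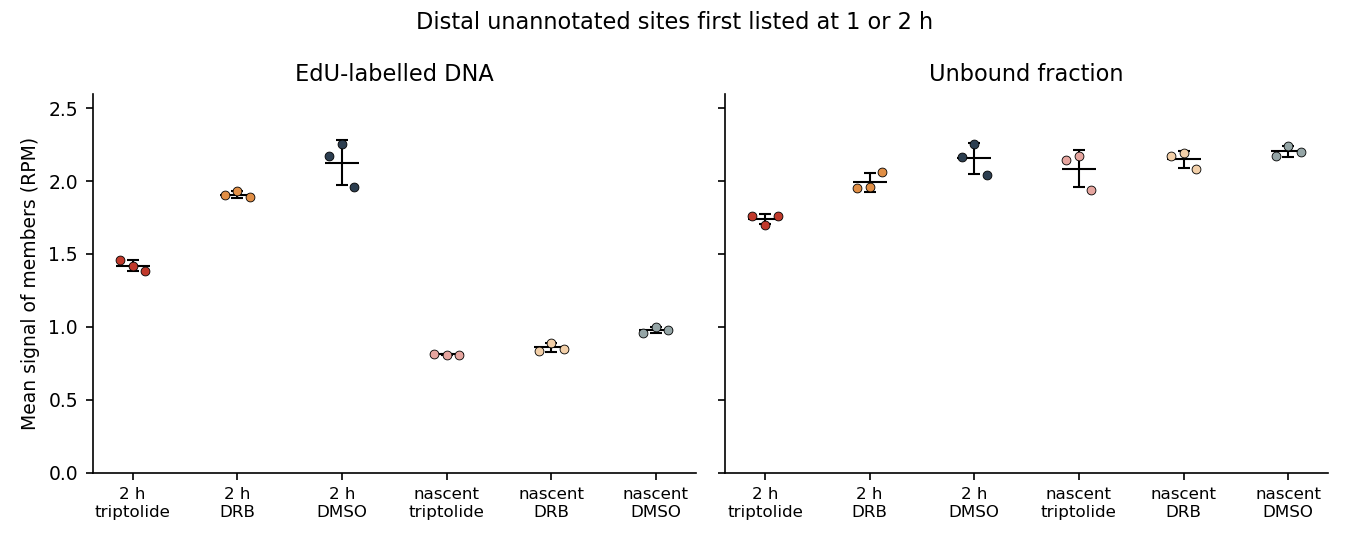
Mean signal of the members (RPM, y axis) in each library, by group, in EdU-labelled DNA (left) and the unbound fraction (right); bars are the mean and SD of 3 libraries. In EdU-labelled DNA the 2 h DMSO libraries lie between 1.96 and 2.25 RPM and the nascent DMSO libraries between 0.960 and 0.996 RPM, while the 2 DMSO unbound groups overlap.

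**Figure D2:**
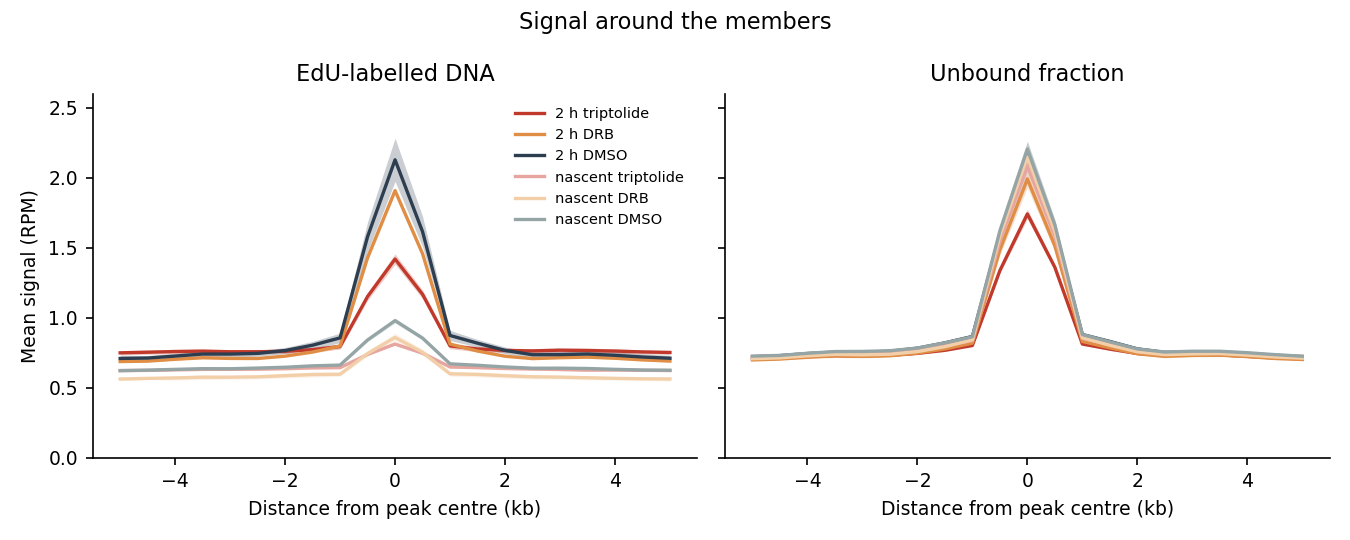
Mean signal (RPM, y axis) of 1 kb windows against distance from the peak centre (kb, x axis) over all members, by group; shading is the mean ± SD of 3 libraries and neighbouring peaks are included. In 2 h DMSO the centre reaches 2.13 RPM, in 2 h triptolide 1.42 RPM and in nascent DMSO 0.979 RPM.

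At single sites the same gain was called in about as large a share of members as of all steady-state sites. In limma over 165963 windows, 12884 of 39271 members' windows rose and 48 fell from nascent to 2 h DMSO (32.8% and 0.122%), against 32.5% higher and 0.411% lower among all sites. The median log2 difference was 0.63 over members and 0.56 over all sites. All 3 libraries at 2 h exceeded all 3 nascent libraries in 16810 members (42.8%), against 41.3% of all sites. When each library was centred on its median steady-state site, which puts the median of all sites at -0.01 in place of 0.56, 1805 members rose and 683 fell (all sites 7.75% and 4.01%). Most of the rise in RPM was thus shared with other open sites. In the unbound fraction limma called 0 members in either direction (all sites 0% higher and 0.000603% lower), and 2759 had an unadjusted p under 0.05. After 2 h EdU-labelled DNA was higher than unbound DNA at 1 member and lower at 0 (all sites 0.00121% and 0.00241%), with 3447 at an unadjusted p under 0.05. Nascent EdU-labelled DNA was lower than unbound DNA at 19899 members and higher at 119 (all sites 49.0% and 0.906%). In the 3 nascent DMSO EdU libraries 354 members had no read at all, while 1 had none in the 2 h DMSO EdU libraries and 0 had none in the 6 DMSO unbound libraries. These counts depend on depth, and the share of all sites is not given. The nascent DMSO EdU libraries held 1.73 to 3.78 M reads and the 2 h ones 2.78 to 3.62 M. The DMSO unbound libraries held 2.35 to 12.8 M reads.

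Members stood between the other distal unannotated classes in level. Over the 6 DMSO EdU libraries their mean was lower than that of peaks first listed at 30 min by a log2 ratio of -0.62, and lower than that of peaks open in nascent chromatin by -1.17. It was higher than that of peaks seen only at steady state by 0.46. Each of these directions held in 6 of 6 libraries (exact sign-flip permutation p = 0.03125, the smallest possible). In the 6 DMSO unbound libraries the same ratios were -0.70, -1.20 and 0.69, again with each direction in 6 of 6. The order of levels was thus not limited to new DNA. The peak lists that define the classes may themselves sort sites by level, which was not tested. The ratio to peaks seen only at steady state was 0.78 at 2 h and 0.13 in nascent DMSO, a difference of 0.65 (exact permutation p = 0.1, no overlap). The ratio to peaks first listed at 30 min changed by -0.05 and that to peaks open in nascent chromatin by 0.05 between the times, and among peaks of 200 to 600 bp by 0.07 and 0.30. At single sites gains in RPM were called at 12884 of 39271 members' windows, against 10927 of 26357 at peaks first listed at 30 min, 8396 of 20455 at peaks open in nascent chromatin and 4808 of 48594 at those seen only at steady state. With each site scaled to the background within 50 kb, a measure described with the triptolide results, 67.3% of members rose (median 1.07), against 78.7% (1.33), 77.3% (1.42) and 34.2% (0.61) in those classes and 63.5% of all sites. By these calls a larger share of members gained than of sites seen only at steady state, and a smaller share than in the earlier classes.

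The members differed among themselves by the list that held them. Relative to all members, the level of those in both the 1 h and 2 h lists was higher by 0.35 at 2 h and 0.11 in nascent DMSO (log2 ratios). Those in the 1 h list alone were lower by -0.26 at 2 h but higher by 0.21 in nascent DMSO. Those in the 2 h list alone stood at -0.22 and -0.15. Gains over the chase were called at 46.7% of members in both lists, 27.8% of those in the 2 h list alone and 15.9% of those in the 1 h list alone. Levels also differed by position, with an exact permutation p of 0.1 (the smallest possible) for each change of the log2 ratio between the times. Members over 50 kb from a TSS stood at 0.00 at 2 h and -0.29 in nascent DMSO, and 41.3% rose, while members 1 to 5 kb from a TSS stood at 0.03 and 0.25, and 25.9% rose. Inside RefSeq genes 28.1% rose, and outside 38.8%. Scaled to the background within 50 kb the shares were closer, with 70.1% over 50 kb from a TSS and 64.9% at 1 to 5 kb, and with 64.8% inside genes and 70.5% outside. Members less than 1 kb from a nascent or 30 min peak stood at 0.28 at 2 h and 0.47 in nascent DMSO, and such neighbours can share a window.

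The members with the greatest called gains included sites in neuronal genes and sites far from any coding gene. A site in Cntnap2, a neurexin family gene, at chr6:46860926-46861800 (build mm10) had 5.21, 8.27 and 6.36 RPM in 2 h DMSO, against 0, 0 and 0 RPM in nascent DMSO. No read was seen there right after replication in any of the 3 libraries, and the log2(RPM + 1) difference was 2.91 ± 0.37 (SE, limma adjusted p = 3.2e-12). A site in Nrxn3, which encodes a synaptic adhesion protein, at chr12:89481701-89482900 had 5.82, 8.99 and 6.91 RPM at 2 h, against 0.000, 0.505 and 0.000 RPM in nascent DNA (2.83, limma adjusted p = 1.1e-11). A narrow site at chr16:83538301-83538550 lay 1179856 bp from the nearest coding gene, Mrpl39. It had 12.9, 12.6 and 12.2 RPM at 2 h, against 0.577, 1.01 and 1.06 RPM in nascent DNA (2.86 ± 0.30, limma adjusted p = 8.3e-17). A site 4486 bp from Aurkb, the gene of the mitotic kinase Aurora B, at chr11:69040851-69041425 had 13.2, 18.3 and 13 RPM at 2 h, against 0.577, 2.02 and 1.59 RPM in nascent DNA (2.76 ± 0.32, limma adjusted p = 1.8e-14). It also had the highest unbound level of all members, with means of 18 RPM at 2 h and 20.2 RPM in nascent DMSO. The other 6 of the 10 greatest gains, with log2 differences of 2.76 to 2.83, lay near Ang, Gria1, Cox7c and Osbp and in Gm31115 and Sntg1.

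Only 48 members fell over the chase in DMSO. The site with the greatest fall, chr1:132327451-132327825 in Nuak2, a kinase gene, had 0.920, 0.000 and 0.277 RPM at 2 h, against 2.88, 1.51 and 3.17 RPM in nascent DMSO (-1.35 ± 0.37, limma adjusted p = 0.002). Sites in Relt and Eml3 followed, with log2 differences of -1.29 and -1.20. These 3 sites had few reads at either time.

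A member was nearest to 12004 coding genes, with a median of 2 members per gene. Cntn5, Csmd3, Auts2, Fhit and Tenm3 had the most, with 42, 41, 37, 35 and 35 members among 92, 84, 117, 67 and 91 steady-state peaks. Cntn5 and Tenm3 encode neuronal adhesion proteins, and Fhit spans a common fragile site. At Csmd3 26 of 41 members rose over the chase, at Fhit 26 of 35, and at Cntn5 24 of 42. These were the highest such counts of any gene. At Auts2 16 of 37 rose, and the share over all sites was 32.5%. Gene length was not taken into account in these counts.

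On the X chromosome the members had less signal in nascent DNA than on the autosomes, and caught up over the chase. E14TG2a cells derive from a male embryo and so carry 1 X chromosome. Of 2561 distal unannotated peaks on X, 1005 (39.2%) were members, while on the autosomes the share ran between 25% on chromosome 11 and 33.2% on chromosome 13. This share rests on the lists that chose the members. In the inhibitor experiment, which did not, the mean of X members was 2.24, 2.26 and 1.91 RPM in 2 h DMSO EdU libraries, against 0.607, 0.656 and 0.616 RPM in nascent DMSO EdU libraries. X members over autosomal members were thus 1.00 ± 0.03 at 2 h and 0.634 ± 0.016 in nascent DMSO (SD, n = 3 each). The ratio was 0.976 to 1.03 at 2 h and 0.622 to 0.652 in nascent DNA, so the times did not overlap, and it was 0.923 to 0.958 in the DMSO unbound libraries. Gains over the chase were called at 528 of 1003 X members' windows (52.6%, against 32.5% of all sites). Scaled to the background within 50 kb, 76.1% of X members and 67.1% of autosomal members rose (median log2 differences 1.17 and 1.07). The log2 shift of the X ratio was 0.66 at members, 0.57 at peaks first listed at 30 min, 0.60 at peaks open in nascent chromatin and 0.73 at peaks seen only at steady state, but 0.31 at annotated enhancers and 0.33 at TSS peaks. In nascent DMSO the X ratio was 0.634 at members, against 0.748, 0.870, 0.560, 0.603 and 0.606 in the other classes in the same order. A low nascent ratio was thus also seen at enhancers and TSS peaks, where the shift over the chase was smaller. Over all windows the ratio of X to autosomes was 0.337 to 0.352 in 2 h DMSO EdU libraries and 0.313 to 0.319 in nascent ones. That all-window ratio moved in the same direction by far less.

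**Figure D3:**
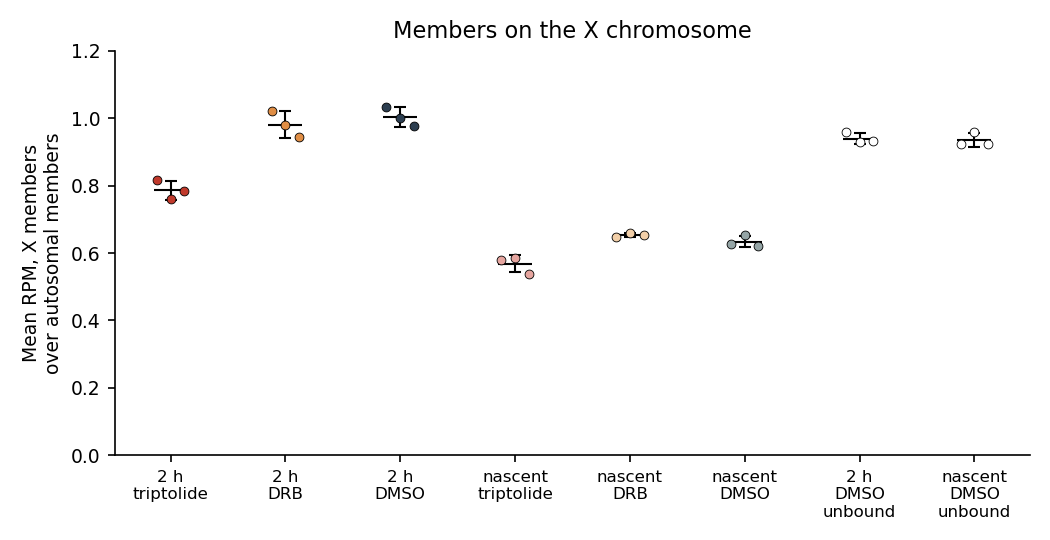
Mean RPM of members on X divided by that of members on autosomes (y axis, no unit) in each library, by group; bars are the mean and SD of 3 libraries. The 2 h DMSO libraries lie between 0.976 and 1.03 and the nascent DMSO libraries between 0.622 and 0.652, with 2 h triptolide at 0.759 to 0.816.

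Triptolide lowered the signal at the members, most after the chase. The members' mean was 1.46, 1.42 and 1.38 RPM in 2 h triptolide EdU libraries, against 2.17, 2.25 and 1.96 RPM in 2 h DMSO EdU libraries (0.667-fold, no overlap, exact permutation p = 0.1). In nascent DNA it was 0.817, 0.810 and 0.808 RPM under triptolide, against 0.960, 0.996 and 0.981 RPM under DMSO (0.829-fold, exact permutation p = 0.1). The gain over the chase was 1.75-fold under triptolide and 2.17-fold under DMSO. The difference of the 2 log2 gains was -0.31 (exact permutation p = 0.285 over 400 arrangements). DRB changed less. The mean was 1.90, 1.93 and 1.89 RPM in 2 h DRB EdU libraries (0.896-fold of DMSO), and the gain over the chase was 2.22-fold (difference of log2 gains 0.03, exact permutation p = 0.845).

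At single sites, 7781 members' windows were lower and 942 higher in 2 h triptolide than in 2 h DMSO (19.8% and 2.40%), against 21.4% lower and 4.02% higher among all sites. The median log2 difference was -0.44 over members and -0.36 over all sites. Centred on the median site, the split was 2200 lower and 2080 higher (all sites 8.61% and 8.37%), so the excess of falls is relative to all reads of a library and not to other open sites. Without the second DMSO library, or the second or the third triptolide library, 4798, 5177 and 4880 members were lower and 624, 592 and 587 higher.

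DRB changed fewer sites. At 2 h 548 members were lower and 362 higher under DRB (all sites 1.57% and 1.06%), and centring turned this split round, to 219 lower and 525 higher (all sites 0.678% and 1.60%). Scaled to the background within 50 kb instead, 1881 were lower and 310 higher (all sites 6.23% and 0.968%). Leaving out any 1 of the 6 libraries left 346 to 549 members called, and without the second DMSO library 163 were lower and 183 higher. In nascent DNA triptolide lowered 151 members and raised 41 (all sites 2.23% and 0.148%), and DRB lowered 123 and raised 30 (all sites 1.09% and 0.0856%). Centring turned these splits round too, to 41 lower and 55 higher under triptolide (all sites 1.08% and 0.173%) and 9 lower and 31 higher under DRB (all sites 0.191% and 0.0868%). Without 1 library, triptolide changed 44 to 178 members in nascent DNA and DRB 52 to 267. The direction of these nascent changes thus depended on the scaling.

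The gain over the chase was seen under each treatment. From nascent to 2 h, 3206 members rose and 5 fell under triptolide (all sites 13.8% and 0.0458%), and 11683 rose and 72 fell under DRB (all sites 35.0% and 0.324%). Centred, 406 rose and 34 fell under triptolide (all sites 2.71% and 0.161%), and 1765 rose and 923 fell under DRB (all sites 8.94% and 3.63%). Leaving out any 1 of the triptolide libraries left 1716 to 2283 members called. The change over the chase was higher under triptolide than under DMSO at 32 members and lower at 279 (interaction term in limma, all sites 0.173% and 0.768%). Under DRB it was higher at 30 and lower at 23 (all sites 0.124% and 0.0566%).

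The greatest falls left almost no signal. At chr1:176013476-176014575 in Pld5, a phospholipase D family gene, 2 h triptolide EdU libraries had 0.000, 0.621 and 0.532 RPM, against 11, 12.9 and 11.6 RPM in 2 h DMSO (-3.25 ± 0.36, SE, limma adjusted p = 1.6e-15). DRB libraries had 3.93, 3.36 and 3.77 RPM there, between the other groups. At chr4:16455601-16455975, 292110 bp from Ripk2, values were 0.864, 0.931 and 0.000 RPM under triptolide and 0.437, 0.373 and 0.870 RPM under DRB, against 11.6, 6.47 and 8.57 RPM under DMSO. Under both inhibitors, whose comparisons share the DMSO libraries, this site stood near its nascent DMSO level of 0.577, 1.01 and 0.794 RPM (-2.66 and -2.65, limma adjusted p = 5.3e-10 and 3.8e-09). Of the 3 greatest falls under DRB, the other 2 were on X, in Gla, the gene of alpha-galactosidase A, and near Rbm3, a gene of cold-inducible RNA binding (-2.2 and -2.08). The site in Cntnap2 fell under triptolide as well (-1.79), while the narrow site near Mrpl39 had 11.8, 9.93 and 10.6 RPM under triptolide, a log2 difference of -0.20 (limma adjusted p = 0.66). The same 2 h DMSO libraries chose both sites for their gain and serve as the control, so these differences are descriptions.

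The 3 greatest rises under triptolide lay in Myo10 and Uso1 and near Zfp42. At chr15:25715676-25716050 in Myo10, a gene of an unconventional myosin, 2 h triptolide EdU libraries had 9.22, 12.4 and 13.6 RPM, against 2.45, 1.08 and 1.11 RPM in 2 h DMSO (2.35 ± 0.32, limma adjusted p = 2.2e-10). At chr8:43262101-43263025, 32504 bp from Zfp42, which encodes the stem cell marker REX1, values were 6.91, 6.52 and 7.45 RPM under triptolide, against 0.613, 0.719 and 0.830 RPM under DMSO (2.21 ± 0.35, limma adjusted p = 4.9e-08). At a site in Uso1, a vesicle tethering gene, they were 7.49, 7.76 and 6.91 RPM, against 0.613, 1.08 and 0.830 RPM. None of these 3 sites overlapped between the groups.

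These rises moved together with the DNA around them. Windows within 50 kb of each site and at least 1000 bp from every listed peak served as its local background, a measure added after the data were seen. Around the Myo10 site it was 2.80 RPM in 2 h triptolide and 0.474 RPM in 2 h DMSO, around the Zfp42 site 2.35 and 0.247 RPM, and around the Uso1 site 2.97 and 0.615 RPM. With each site scaled to its surroundings the log2 differences were 0.32, 0.02 and 0.64 (limma adjusted p = 0.465, 0.976 and 0.157), and none was called. Some rises had no such shift. A site at chr1:31778076-31778500, 394314 bp from Khdrbs2, had 6.34, 7.45 and 7.71 RPM in 2 h triptolide and 9.61, 10.8 and 10.7 RPM in 2 h DRB, against 0.920, 1.80 and 1.66 RPM in 2 h DMSO. Scaled to its surroundings it was still higher under both (1.75 and 1.69, limma adjusted p = 5.74e-05 and 0.0021). A site in Klhl1 at chr14:96107426-96107875 behaved alike, with 1.11 and 1.45 after scaling (limma adjusted p = 0.00695 and 0.00574).

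Across all members the surroundings gained signal while the sites lost it. The local background averaged 0.534 RPM in 2 h triptolide and 0.279 RPM in 2 h DMSO, or 1.91-fold, while the sites stood at 0.667-fold. The ratio of site to surroundings was 2.66 ± 0.10 in 2 h triptolide, 5.92 in 2 h DRB and 7.65 ± 0.85 in 2 h DMSO (SD, n = 3), with no overlap between triptolide and DMSO. It was 1.49 in nascent triptolide and 2.05 ± 0.08 in nascent DMSO. By this measure the gain over the chase was 1.78-fold under triptolide and 3.74-fold in DMSO. Triptolide at 2 h left 0.348 of the DMSO ratio at members, 0.271 at peaks first listed at 30 min, 0.238 at peaks open in nascent chromatin and 0.481 at those seen only at steady state. Scaled in this way 16207 members were lower and 217 higher in 2 h triptolide (all sites 47.7% and 0.553%), and 26431 rose and 11 fell from nascent to 2 h DMSO (all sites 63.5% and 0.0862%). Of the 942 members called higher under triptolide in RPM, 74 were still called higher and 64 were called lower. The unbound fraction moved the same way, with ratios of 4.61 in 2 h triptolide and 8.05 in 2 h DMSO, so the shift was not limited to new DNA. Whether the site signal per cell changed cannot be told apart from a change in the signal elsewhere, since the values are relative to each library's total.

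**Figure D4:**
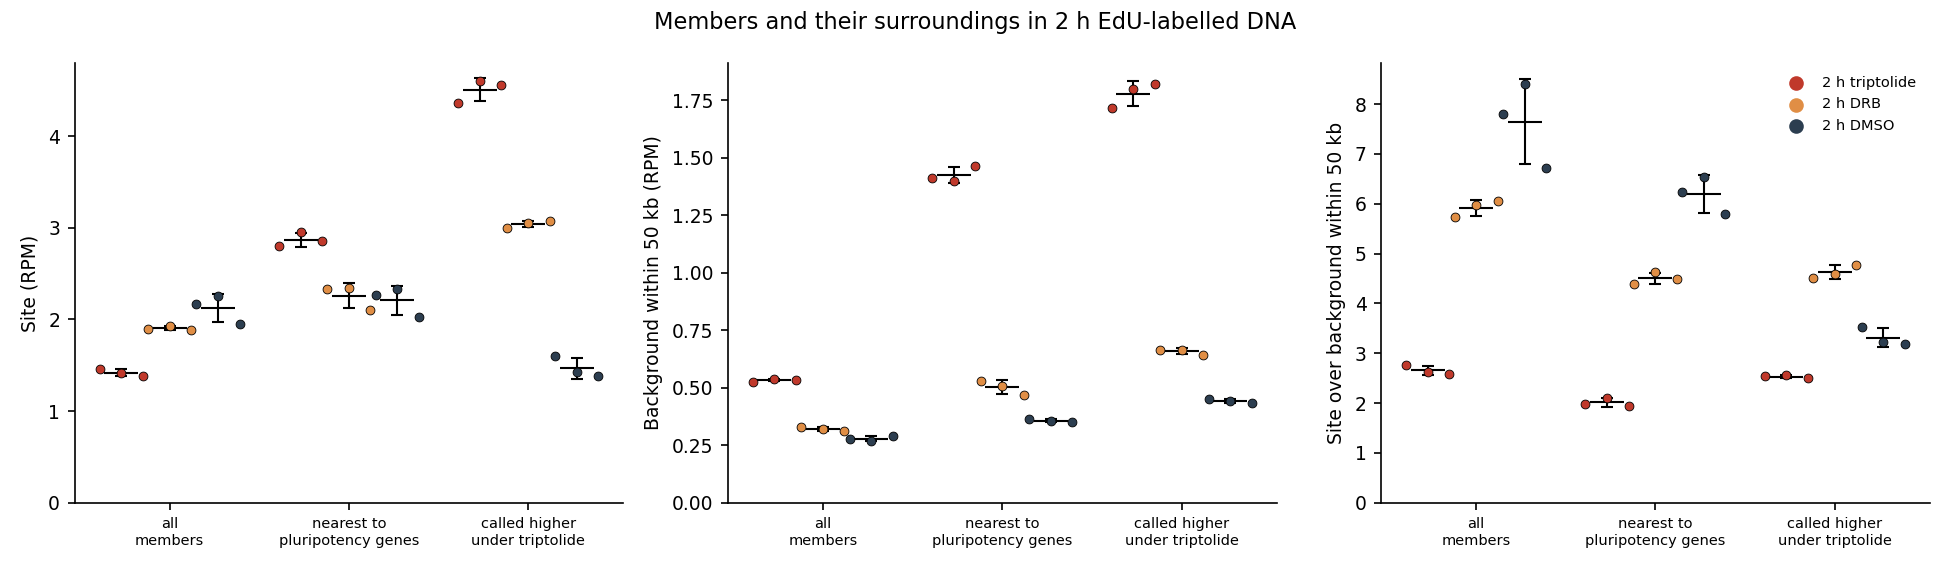
Signal at the site (RPM, left), in windows within 50 kb outside all peaks (RPM, middle) and their ratio (right) in the 2 h EdU-labelled libraries, for all members, for those nearest to pluripotency genes and for those called higher under triptolide, the last chosen on the site values. Bars are the mean and SD of 3 libraries; for all members the ratio averages 2.66 in triptolide and 7.65 in DMSO, and at pluripotency genes 2.02 and 6.19.

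Near the pluripotency genes, which keep stem cells undifferentiated, more members were higher than lower under triptolide in RPM. The members nearest to 29 of the 34 listed genes, at any distance, numbered 201, and 28 genes had a member within 50 kb. Under triptolide at 2 h 37 of them were higher and 17 lower (18.4% and 8.46%), with a median log2 difference of 0.21, while the median over all sites was -0.36. Their mean was 2.81, 2.96 and 2.86 RPM in 2 h triptolide, against 2.26, 2.34 and 2.03 RPM in 2 h DMSO (1.30-fold, no overlap). Klf5, which encodes a transcription factor of ground-state pluripotency, had 4 of 13 members higher and 0 lower. Tet2, which encodes a DNA demethylase, had 5 of 13 higher and 1 lower, and Zfp42 had 3 of 11 higher and 0 lower. Prdm14 and Dppa3, genes of naive pluripotency and the germ line, had 2 of 7 and 2 of 4 members higher. Sox2, the partner of OCT4, was divided, with 5 of 18 higher and 4 lower, and Jarid2, a Polycomb cofactor gene, likewise with 4 of 24 higher and 4 lower. Nr5a2, a gene of a nuclear receptor, had 1 of 15 higher and 2 lower. The member nearest to a listed start, 2048 bp from that of Nr5a2, had 4.60, 7.55 and 4.15 RPM in 2 h DMSO, against 0.577, 1.01 and 1.32 RPM in nascent DMSO (1.69, limma adjusted p = 2.3e-05).

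Around these genes the background outside peaks was higher under triptolide. It was 1.43 RPM in 2 h triptolide and 0.357 RPM in 2 h DMSO, or 4.00-fold, against 1.91-fold for all members and 1.36-fold to 2.47-fold for the other 6 lists. The ratio of site to surroundings was 2.02 ± 0.08 in 2 h triptolide and 6.19 ± 0.38 in 2 h DMSO, or 0.326-fold, close to the 0.348 of all members. Scaled to the surroundings 0 of 201 were higher and 112 lower (all sites 0.553% and 47.7%), with a median of -0.98. Of the 37 higher in RPM, 0 stayed higher and 7 turned lower. In 2 h DRB the sites averaged 2.26 RPM, near the DMSO level. Peaks of the same genes in the other classes also had rises in RPM, with 50 of 266 higher at those first listed at 30 min, 33 of 226 at those open in nascent chromatin and 50 of 223 at those seen only at steady state, but 2 of 53 at annotated enhancers and 6 of 87 at TSS peaks.

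At each of the remaining lists lower calls outnumbered higher ones, as they did among all sites (21.4% lower and 4.02% higher, median -0.36). Primitive endoderm genes, which mark the first extraembryonic lineage, had 0 of 64 members higher and 15 lower in 2 h triptolide (median -0.51). Neural and germ layer genes had 0 of 52 higher and 10 lower (median -0.55). Immediate early genes, the rapid targets of growth signals, had 0 of 53 higher and 14 lower (median -0.68). Members were assigned to the nearest gene at any distance, and 7 of the 20 immediate early genes had a member within 50 kb. The 10 members nearest to Myc, of which 4 were lower, lay at least 232727 bp away. Other distal peaks of these genes were divided, with 20 of 79 higher and 17 lower at those first listed at 30 min. At those open in nascent chromatin 12 of 50 were higher and 12 lower, and at those seen only at steady state 9 of 88 and 8. Annotated enhancers had 0 of 20 higher and 7 lower, and TSS peaks 0 of 41 and 16. Polycomb-bound developmental regulators had 2 of 91 higher and 9 lower (median -0.28), trophectoderm genes 3 of 40 and 4 (median -0.18), and fibroblast genes 0 of 29 and 2 (median -0.33), each with a lower share and a median nearer to 0 than all sites. Scaled to the surroundings the lower counts were 20, 23, 16, 40, 17 and 8 in the same order, with 1 Polycomb-bound and 1 fibroblast gene member higher. In all 7 lists the lower calls outnumbered the higher ones after local scaling, as they did among all sites (47.7% lower and 0.553% higher). In each list of this paragraph the lower share was below that of all sites.

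**Figure D5:**
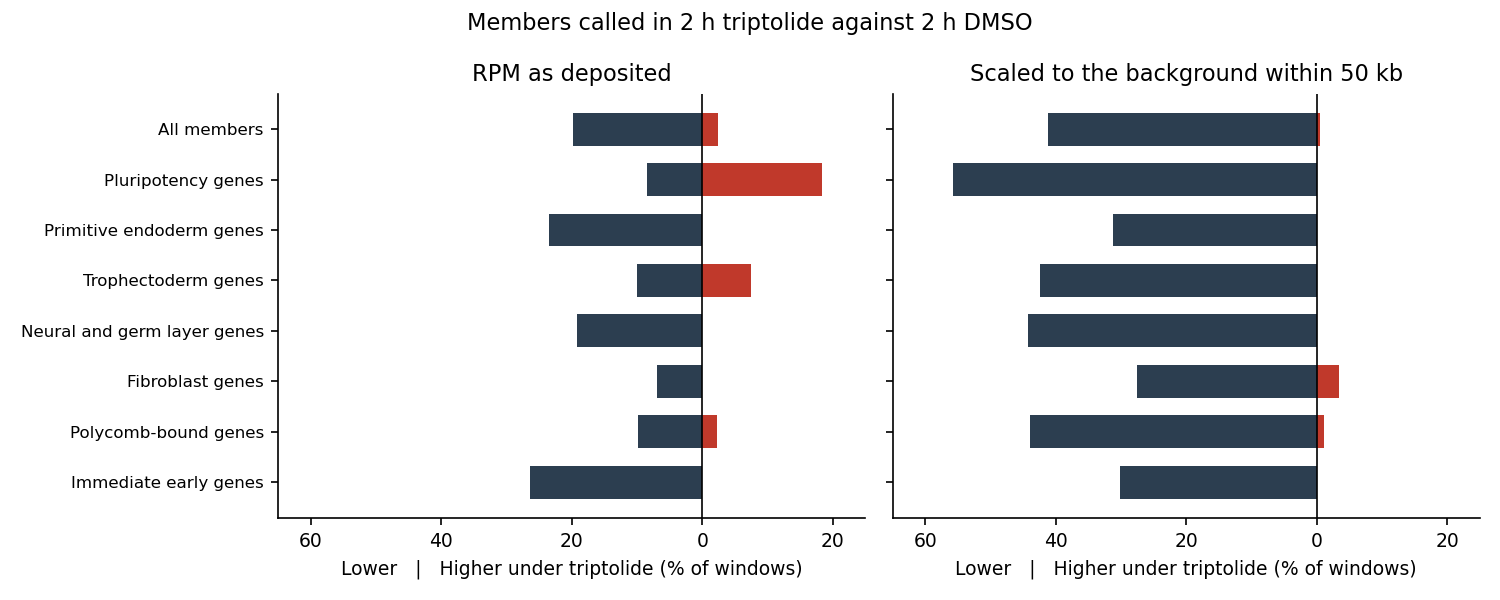
Share of members' windows called lower (left of 0) and higher (right of 0) in 2 h triptolide than in 2 h DMSO (percent, limma), for all members and for those nearest to the genes of 7 lists, in RPM (left panel) and scaled to the background within 50 kb (right panel). At pluripotency genes 18.4% are higher in RPM and none after scaling.

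Over the chase in DMSO some members of each of the 7 lists rose. Of members nearest to pluripotency genes 46 of 201 rose (median 0.53), a smaller share than the 32.5% of all sites. At Polycomb-bound regulators 37 of 91 rose (median 0.73), at primitive endoderm genes 26 of 64 (median 0.64), at neural and germ layer genes 24 of 52 (median 0.78) and at immediate early genes 22 of 53 (median 0.80). At trophectoderm genes 12 of 40 rose (median 0.66) and at fibroblast genes 8 of 29 (median 0.60), shares below that of all sites. A single member fell at primitive endoderm and at immediate early genes each, and the one at immediate early genes lay nearest to Dusp1, a phosphatase gene (-0.90). Near the start of Dab2, an endocytic adaptor gene of the endoderm, the member had 0.920, 1.44 and 0.830 RPM at 2 h, against 0, 0 and 0 RPM in nascent DMSO (1.03, limma adjusted p = 0.015). At Twist1, a mesenchymal transcription factor gene, it was higher too (1.12, limma adjusted p = 0.011). The members nearest to the starts of Otx2, Elf5, Neurog2 and Jun had differences of 0.46, 0.67, 0.83 and 0.87 that did not pass (limma adjusted p = 0.35, 0.16, 0.062 and 0.053). The starts of the stem cell markers Pou5f1, Sox2, Nanog, Klf4 and Zfp42 all had a steady-state peak within 1000 bp, as did those of Cdx2, Elf5 and Col1a2, so a peak at the start did not separate the markers of the cell types.

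In RPM the share of members lower under triptolide differed by chromosome and by list. On X 270 members were lower and 3 higher in 2 h triptolide (26.9% and 0.299%), and X members over autosomal members were 0.759 to 0.816 in 2 h triptolide, against 0.976 to 1.03 in 2 h DMSO. Of members in both time lists 28.2% were lower and 1.58% higher, of those in the 2 h list alone 16.8% and 1.84%, and of those in the 1 h list alone 9.58% and 6.46%. Scaled to the background within 50 kb most of these gaps were smaller, with 43.3% of X members and 41.2% of autosomal members lower, and 51.7% of those in both lists, 35.6% in the 2 h list alone and 35.2% in the 1 h list alone. The 1 h list alone also had the smaller fall in mean signal (0.960-fold, against 0.667-fold over all members), while its surroundings rose 2.37-fold.

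In nascent DNA the greatest rise under triptolide was 625 bp from Ddit4, a stress response gene, at chr10:59948426-59949675. It had 4.52, 3.17 and 3.06 RPM in nascent triptolide, against 0.577, 0.000 and 0.794 RPM in nascent DMSO (1.68, limma adjusted p = 0.00064). After the chase it had 4.61, 3.72 and 5.32 RPM under triptolide, against 1.23, 1.44 and 1.11 RPM under DMSO. The background within 50 kb was higher too, with 1.9 RPM in nascent triptolide and 1.05 RPM in nascent DMSO, and 3.68 RPM in 2 h triptolide and 0.658 RPM in 2 h DMSO. Scaled to it the 2 h difference was -0.45 (limma adjusted p = 0.31), and the site was not called. The greatest falls in nascent DNA, in Zfp930, near Slc7a15 and in Cenpb, ranged between -1.69 and -1.66 in log2 difference.

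In the spike-in experiment, where 100 EdU-labelled Drosophila S2 cells were added to each sample, values exist only for 5 kb regions at TSSs and enhancers, with 2 libraries per time. Of 354 TSS regions that held a member and no peak of another class, 37 were higher and 1 lower at 2 h than in nascent DNA (median 0.55, limma), against 30.1% and 1.35% of all TSS regions. Of 92 such enhancer regions 33 were higher and 0 lower (median 0.94), against 60.3% and 0.353% of all. The mean log2 value of those 92 regions was 5.15 and 5.05 in the 2 h libraries, against 3.72 and 4.48 in the nascent libraries, so the nascent pair was wide apart. Centred on the median region, 26 TSS regions were higher and 78 lower, and 6 enhancer regions were higher and 27 lower. Without either 2 h library limma called 0 regions. Without the first nascent library it called 52 TSS regions higher and 35 lower (median 0.07) and 38 enhancer regions higher and 2 lower. Without the second it called 179 TSS regions higher and 3 lower and 70 enhancer regions higher and 0 lower.

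The inhibitor libraries held 1.30 to 5.55 M reads in EdU-labelled and 2.35 to 14.4 M in unbound DNA, and a member's window had on average 6.27 to 7.08 reads in 2 h DMSO and 1.67 to 3.71 in nascent DMSO EdU libraries. The median standard error of a member's log2 difference was 0.365 in EdU-labelled and 0.218 in unbound DNA, so small differences at single sites were not detectable at this depth. The peak lists hold positions only, so the depth behind the members' choice is unknown.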

How the data were processed

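The labels describe repli-ATAC-seq libraries of mouse embryonic stem cells. Reads were trimmed with Trim Galore 0.4.2 and aligned with Bowtie2 2.2.6.2 to mm10, per the submitters' processing notes. No source used here names the peak caller. Deposited peaks have positions only, in 1 combined list per group. The authors deposited log2(RPM + 1) for 1 kb windows every 500 bp (5451088 windows, 36 inhibitor libraries), per the file headers. RPM was recovered by undoing the log2, and reads from each library's smallest step (100% whole, tolerance 0.1 read). For spike-in libraries the authors deposited log2 values of 5 kb regions, and how S2 reads entered them is not given.

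For each steady-state peak the window nearest its centre was used, and each of 165963 windows entered once if above 0 in at least 3 libraries. Limma 3.58.1 (trend, R 4.3.3) was fitted on log2(RPM + 1) over all groups of a fraction, with Benjamini-Hochberg adjustment and a threshold of 0.05. It was tested on simulated data. Means over members were compared by exact permutation tests. The nearest gene is the nearest RefSeq coding gene, at any distance. Local background was the mean of windows within 50 kb of a site's centre and at least 1000 bp from all listed peaks. Figures were drawn with matplotlib 3.10.9, and values computed in Python 3.11.15 (scipy 1.17.1, pandas 2.3.3, numpy 2.4.6), with data.table (version 1.17.8) in R.

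The members, gene lists and motif letters were chosen with earlier results of these data known. Sites named in the text were the 10 greatest called gains with no overlap and the 3 greatest falls over the chase, the 3 greatest called changes in each direction per inhibitor and time, the highest unbound sites, those at the limit of the rule, and the member nearest to a start of each list; promoter windows, the sites at Khdrbs2 and Klhl1 after local scaling and the genes with most members were picked after their values were seen.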

Additional observations from a re-analysis of the deposited data

Results flagged for a closer look

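The change from nascent to 2 h differed between triptolide and DMSO at some members by a test of the difference itself (an interaction term in limma over all EdU libraries). At 32 members the change was higher under triptolide than under DMSO, and at 279 it was lower. Among all sites these shares were 0.173% and 0.768%. Between DRB and DMSO the change was higher under DRB at 30 members and lower at 23, against 0.124% and 0.0566% of all sites. With 1 library left out the members called numbered 73 to 303 for triptolide and 17 to 101 for DRB. Groups had 3 libraries each, so no search for single libraries far from the rest was made.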

How the results depend on the processing

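The gain over the chase in DMSO and the order of the distal classes kept their direction under the alternatives run, except where named here. The fall under triptolide at 2 h depended on the scaling. Centred on the median site, lower calls at members barely outnumbered higher ones (all sites 8.61% lower and 8.37% higher). Under the other alternatives run the fall kept its direction, except where named here. The cause of each change was not tested. Limits are few reads per window, 3 libraries per group, values relative to library totals, positions without heights, and sequence at promoter windows only.

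In log2 of the mean signal, the ratio to background windows gave gains over the chase of 1.27 under triptolide, 1.83 under DRB and 1.80 in DMSO, and inhibitor differences of -0.38 (triptolide) and -0.35 (DRB) in nascent DNA and -0.90 and -0.33 at 2 h. The mean over all windows that overlap a peak gave 0.71, 1.04 and 1.00 for the gains and -0.23 for triptolide in nascent DNA, and an overlap of at least 0.5 of the peak gave 1.21 for DRB. The background within 50 kb gave 0.83, 1.65 and 1.90 for the gains, -0.46 and -0.12 in nascent DNA, -1.52 and -0.37 at 2 h, and -0.0827 for the DMSO unbound libraries.

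The change of the members' ratio to peaks first listed at 30 min was -0.0158 with all overlapping windows (exact permutation p = 0.3), -0.0192 with an overlap of 0.5, 0.0700 among peaks of 200 to 600 bp and -0.0705 among peaks alone in their window. To peaks open in nascent chromatin it was 0.12, 0.19, 0.30 and 0.0339 under the same settings. To peaks seen only at steady state it was 0.57 with all overlapping windows, 0.61 among peaks of 200 to 600 bp and 0.74 among peaks alone in their window.

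Counts of members called, in either direction, are given here only to show how they moved with the setting. They stand without the share of all sites and do not set members apart from other sites. With libraries scaled to background windows the counts were as follows. Over the chase they were 9001 under triptolide, 22618 under DRB and 26863 in DMSO. In nascent DNA they were 88 under triptolide and 61 under DRB, and at 2 h 16700 and 3550. The test of the difference of changes called 2569 and 154, and the test of EdU-labelled against unbound DNA 297 at 2 h and 32961 in nascent DNA. Centred on the median site, the counts over the chase were 440, 2688 and 2488, those in nascent DNA 96 and 40, and that of triptolide at 2 h 4280. Scaled to the background within 50 kb, they were 4910, 20153 and 26442 over the chase, 50 and 0 in nascent DNA, 16424 and 2191 at 2 h, and 3035 for the difference of changes under triptolide. A pseudocount of 0.5 RPM left 302 members for DRB at 2 h. Limma-voom on recovered reads called 0 for DRB in nascent DNA, where limma on log2(RPM + 1) called 153, of 4228 at an unadjusted p under 0.05. With only the 2 groups compared, 5114 were called over the chase under triptolide, 105 and 1 in nascent DNA under triptolide and DRB, and 1651 for DRB at 2 h.

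Deviations of same-numbered inhibitor libraries from their group means were weakly correlated (r from -0.0157 to 0.162). No pair of groups exceeded the set limit of 0.1 at every number, so the tests did not pair libraries. In many pairs same-numbered libraries were still more alike, as in 2 h DRB and 2 h DMSO EdU (0.0218 to 0.0652, other numbers at most 0.000715). In 2 h and nascent triptolide EdU they were not (-0.0157 to 0.0246, other numbers at most 0.0268). A fit with the replicate number as a block kept the inhibitor counts within 1.5 times (13083 higher and 53 lower over the chase in DMSO), and in the spike-in experiment left 5 TSS and 21 enhancer regions called. Centred, 104 TSS regions were called.

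Counts with 1 library left out are of members alone, again without the share of all sites. Over the chase they ran between 1716 and 2283 under triptolide, 9096 and 10582 under DRB and 9073 and 11350 in DMSO. At 2 h they ran between 5422 and 7020 for triptolide and 346 and 549 for DRB, and in nascent DNA between 44 and 178 and between 52 and 267. The differences of changes ran between 73 and 303 and between 17 and 101, EdU against unbound between 16863 and 18238 in nascent DNA and 0 and 2 at 2 h, the unbound fraction between 0 and 11, and the spike-in regions between 0 and 182 (TSS) and 0 and 70 (enhancers). Log2 gains in mean signal ran between 0.79 and 0.82 under triptolide, 1.13 and 1.18 under DRB, and 1.08 and 1.18 in DMSO, and between -0.0662 and 0.0042 in the unbound fraction. Inhibitor differences ran between -0.64 and -0.54 (triptolide) and -0.21 and -0.11 (DRB) at 2 h, and -0.28 and -0.26 and -0.22 and -0.17 in nascent DNA. Ratios to the classes ran between -0.62 and -0.61 (30 min), -1.18 and -1.16 (open in nascent) and 0.39 and 0.53 (only at steady state), where 5 libraries cannot give an exact p under 0.05. Their changes ran between -0.06 and -0.05, 0.05 and 0.07, and 0.64 and 0.67.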
